A study of Mus musculus with 3 samples.

Results

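The genes described here encode the proteins of the mitochondrial ribosome. They were taken from the deposited expression table as the rows whose symbol begins with Mrpl or Mrps and a digit, and pseudogene rows marked -ps were left out. The rule found 77 of the 26970 genes in the table, of which 48 are named for the large ribosomal subunit (Mrpl) and 29 for the small subunit (Mrps). All 77 passed the filter used for every comparison (average level over the 3 libraries no lower than 1 FPKM), as did 13026 genes of the table. FPKM is the number of sequenced fragments divided by the gene's length in kilobases and by the library's depth in units of 1e+06 fragments.

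The libraries come from mandibular condyles, cartilage and subchondral bone together, of C57BL/6 mice aged 4 months. The groups are WT (+/+), Dspp+/- and Dspp-/-, which differ in a knockout of Dspp, the gene of dentin sialophosphoprotein, that is global and so carried in all cells of the animal. The deposited table holds 1 column of values per genotype, treated here as 1 library, and although the protocol in the labels speaks of triplicates, whether a column joins several libraries is not given in the sources used here. Tissue of 3 animals was pooled for WT and for Dspp+/-, while the number of animals behind Dspp-/- is not given in the sources used here. Without replicates the genotypes could not be tested against each other, and every difference below is one between single libraries. The fragments behind each value were recovered from the FPKM, and an interval given beside a fold is the 95% Clopper-Pearson interval from those fragments, which covers counting error only.

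Mitochondria translate their own small genome on a ribosome of bacterial ancestry. Its 2 ribosomal RNAs are transcribed inside the organelle, whereas all of its proteins are encoded in the nucleus, made in the cytosol and imported. The small subunit binds the messenger RNA and reads the codons, and the large subunit joins the amino acids and releases the chain at the inner membrane. All proteins made there are subunits of the respiratory chain and ATP synthase. A part of the ribosomal proteins has counterparts in bacteria, and the others exist only in mitochondria. In bone and cartilage, osteoclasts are rich in mitochondria, while chondrocytes rely largely on glycolysis.

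The recovered depths were 20241576 (WT), 23613620 (Dspp+/-) and 22253157 (Dspp-/-) fragments. Markers of the tissue were abundant, with Col1a1 at 6675 FPKM and Col2a1 at 761 FPKM in WT. The libraries differ strongly in cell type markers. All 10 osteoblast markers were lower in both mutants than in WT (sums of 15944, 4397 and 8844 FPKM for WT, Dspp+/- and Dspp-/-), as were the 10 chondrocyte markers (of 12 listed) and the 9 osteoclast markers that passed the filter. The 3 osteocyte markers that passed, of 4, were lower too. All 10 erythroid markers (904, 3767 and 3645), all 10 neutrophil markers (611, 2739 and 3588) and all 10 cell cycle genes (40.4, 123 and 120) were higher in both mutants. The sums of the remaining lists were 17.6, 61.9 and 45.6 FPKM for 7 B cell markers, 10812, 14686 and 11903 for 10 skeletal muscle markers, 61.5, 58.5 and 138 for 8 adipocyte markers and 163, 180 and 170 for 8 endothelial markers. These lists were mixed. Of the markers that passed the filter, 5 of 6 (B cell), 7 of 9 (muscle), 3 of 7 (adipocyte) and 5 of 8 (endothelial) were higher in Dspp+/- than in WT. In Dspp-/- the numbers were 6, 4, 7 and 5. Xist, which is transcribed in female cells, was at 0.0055 (WT), 28.5 (Dspp+/-) and 26.5 (Dspp-/-) FPKM. Genotype and sex of the animals therefore cannot be told apart where a mutant is compared with WT. The mutants had like levels of Xist, but the sex of single animals in a pool cannot be read from these values. In bulk tissue, fewer cells of a type and less RNA per cell cannot be told apart either. The part of these shifts in the values below was not tested.

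All 77 mitochondrial ribosomal protein genes were transcribed in all 3 libraries, at moderate levels that spanned about an order of magnitude. They held 35104 (WT), 48054 (Dspp+/-) and 37352 (Dspp-/-) fragments, or 1734, 2035 and 1679 of every 1e+06. Where 3 FPKM values follow each other below without labels, they are in the order WT, Dspp+/-, Dspp-/-. The median gene was at 7.13 (WT), 8.23 (Dspp+/-) and 7.39 (Dspp-/-) FPKM. In WT the levels ran from 1.91 FPKM for Mrpl19 to 44.3 FPKM for Mrpl34. The order of the genes was much alike in the libraries. Spearman's rho over the 77 genes was 0.95 between WT and Dspp+/-, 0.94 between WT and Dspp-/- and 0.98 between the mutants.

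**Figure D1:**
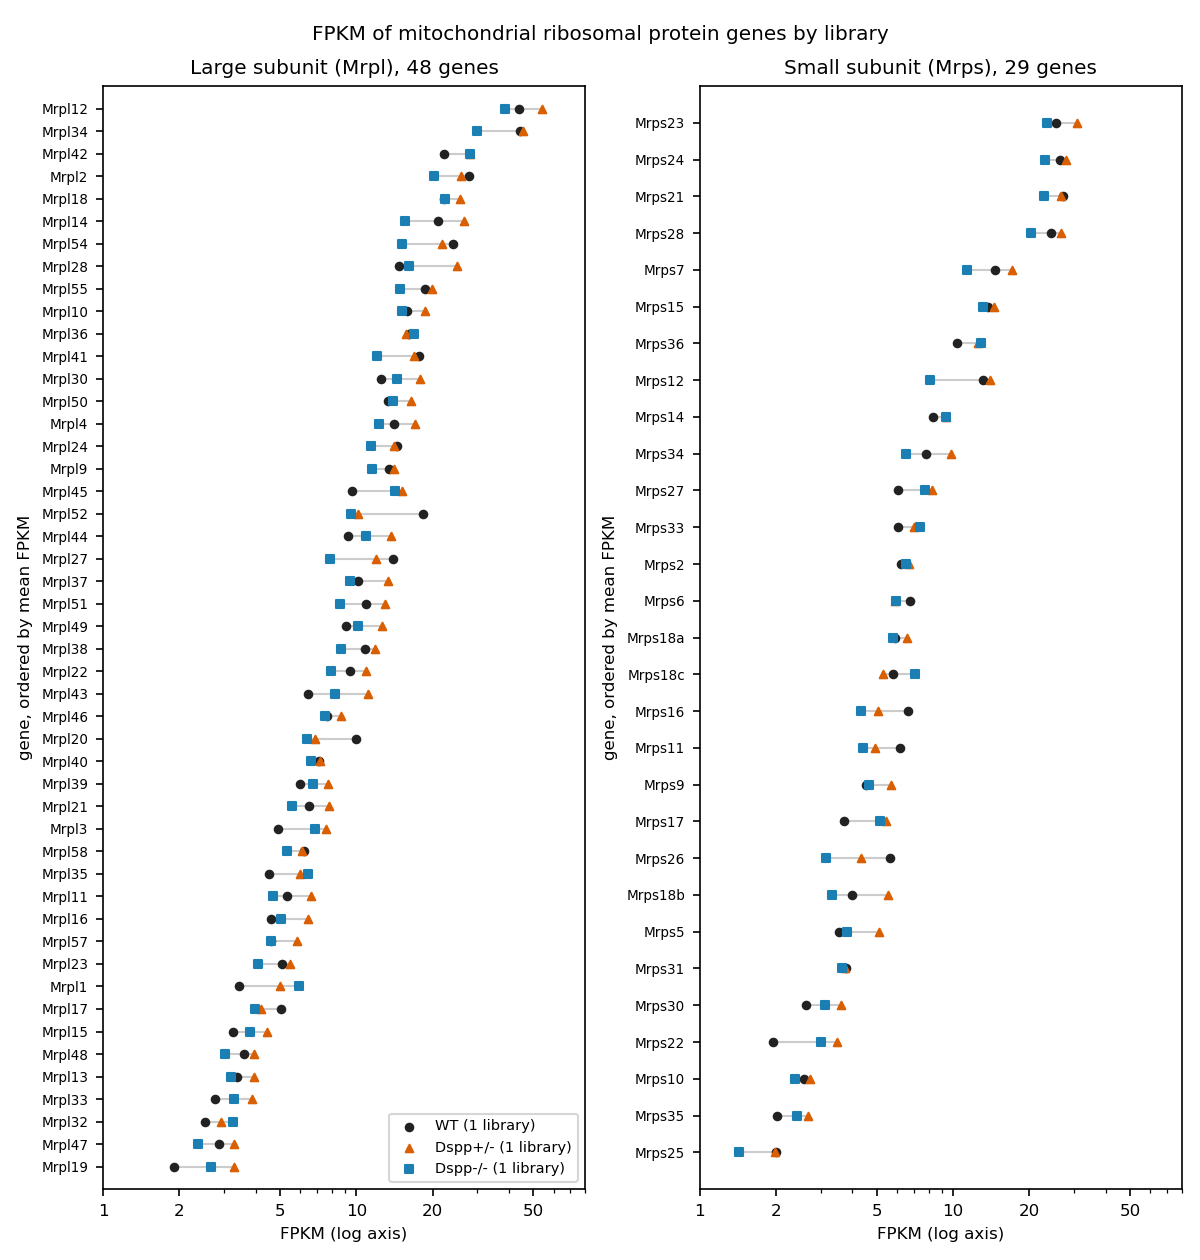
FPKM (log axis) of the 48 large subunit genes (left) and the 29 small subunit genes (right) in WT (circles), Dspp+/- (triangles) and Dspp-/- (squares), 1 library each, ordered by mean FPKM, with a grey line from the lowest to the highest library. The Dspp+/- library was the highest of the 3 for 54 genes, and the Dspp-/- library was the lowest for 45, and the like shares over all genes were not computed.

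In the large subunit, Mrpl12 was the most abundant transcript by mean FPKM. It encodes bL12m, the protein of the flexible stalk that recruits translation factors, and it also binds the mitochondrial RNA polymerase. Mrpl12 was at 43.9 (WT), 53.8 (Dspp+/-) and 38.7 (Dspp-/-) FPKM. Mrpl34, for the small core protein bL34m, was at 44.3 (WT), 45.6 (Dspp+/-) and 29.9 (Dspp-/-) FPKM. For both genes, Dspp+/- was the highest library and Dspp-/- the lowest. Mrpl42 (mL42, found only in mitochondria) was at 22.2, 28.2 and 28.0 FPKM in WT, Dspp+/- and Dspp-/-. Mrpl2, whose product uL2m sits beside the peptidyl transferase centre, was at 28.0, 25.8 and 20.2 FPKM. Mrpl18 (uL18m, of the central protuberance) was at 22.2, 25.6 and 22.5 FPKM. These 5 genes did not share an order of the libraries. At the other end of the large subunit were Mrpl32 (2.52, 2.93 and 3.27 FPKM), Mrpl47 (2.86, 3.28 and 2.37 FPKM) and Mrpl19 (1.91, 3.30 and 2.68 FPKM), in the order WT, Dspp+/- and Dspp-/-.

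In the small subunit, 4 genes stood above the others at 20.2 to 30.8 FPKM. Mrps23 (mS23) was at 25.5 (WT), 30.8 (Dspp+/-) and 23.6 (Dspp-/-) FPKM. Mrps24, for uS3m at the entry of the messenger RNA channel, was at 26.4, 27.9 and 23.1 FPKM. Mrps21 (bS21m) was at 27.2, 26.5 and 22.9 FPKM. All 3 were lowest in Dspp-/-. The same holds for Mrps28 (bS1m), at 24.2, 26.6 and 20.2 FPKM, and for Mrps7, whose product uS7m binds the ribosomal RNA of the head, at 14.7, 17.1 and 11.3 FPKM. The lowest were Mrps10 (2.59, 2.73 and 2.38 FPKM), Mrps35 (2.01, 2.67 and 2.43 FPKM) and Mrps25 (2.01, 1.98 and 1.43 FPKM), although 69.8% of the exon bases of Mrps25 also belong to another gene, Nr2c2.

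Large subunit genes were the more abundant of the pair. Their mean level was 11.8 (WT), 13.4 (Dspp+/-) and 10.5 (Dspp-/-) FPKM, against 8.87, 9.77 and 8.15 FPKM for small subunit genes. The ratio of the means was 1.33 (WT), 1.37 (Dspp+/-) and 1.29 (Dspp-/-). The medians differed more, with 9.51 against 6.08 FPKM in WT. The subunits overlapped over nearly their whole range, since small subunit genes reached 27.2 FPKM in WT and large subunit genes went down to 1.91 FPKM.

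The level of a gene in the table depends on the length it was divided by. The deposited FPKM uses the merged length of all annotated exons, and over the 77 genes the WT level had a Spearman's rho of -0.79 with that length. Levels over the length of the longest coding transcript (CCDS-tagged) gave another order, with a rho of -0.50 with the merged length. Mrpl33 (bL33m) was in place 70 of 77 in WT at 2.78 FPKM over 7326 bases of merged exons, and in place 5 at 42.6 over its coding transcript of 478 bases. Mrpl42 moved from place 9 to place 1, at 123 on the scale of FPKM. Mrpl12 was in place 2 on both scales. The length cancels in a ratio between libraries, apart from the pseudocount. The ratios described below still went with exon length across the 77 genes, with a rho of 0.30 in Dspp+/- over WT (0.0071 over 12983 genes), 0.37 in Dspp-/- over WT (0.12) and -0.29 in Dspp+/- over Dspp-/- (-0.16), and the part of length was not tested.

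**Figure D2:**
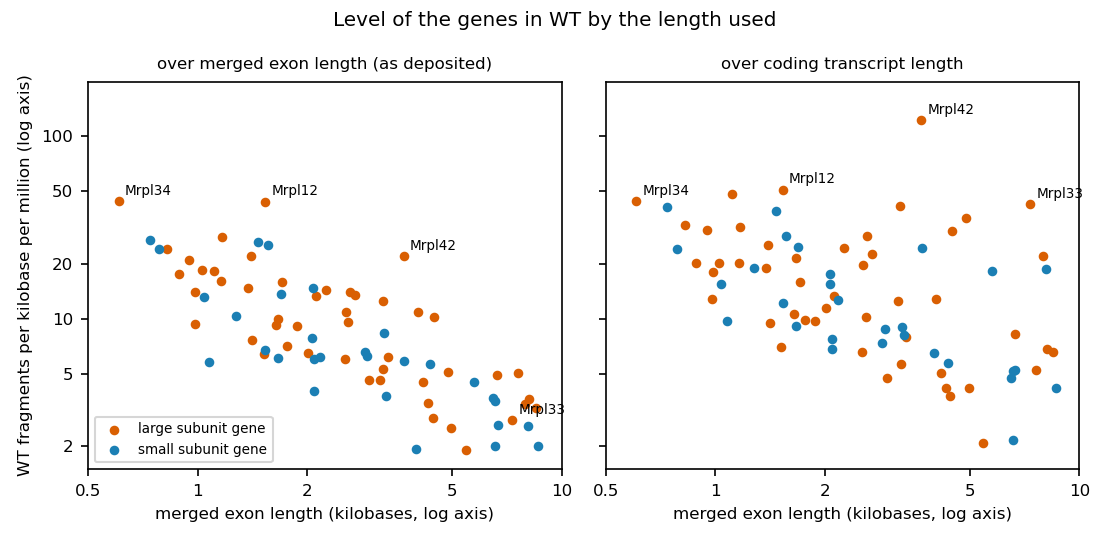
Level of each gene in WT against its merged exon length (both axes log), with fragments divided by the merged exon length as deposited (left) and by the length of the longest coding transcript (right), for large subunit (orange) and small subunit (blue) genes. Mrpl33 and Mrpl42, whose merged exons are much longer than their coding transcripts, are higher on the right, and Mrpl12 and Mrpl34 stay near the top.

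The 77 genes lie on 17 chromosomes, all of them autosomes, with up to 11 genes on a chromosome (chromosome 11). Of these genes, 15 (19.5%) have a gene on the other strand that starts within 1000 bases and runs the opposite way. The partners of the 15 passed the filter and do not overlap the member in the authors' positions. Mrps11 and Mrpl46, described below, overlap there and are not among the 15. The share over all 13026 genes compared was 8.41%. The partners include Sars2, the mitochondrial seryl-tRNA synthetase, which starts 172 bases from Mrps12, Psma2, a proteasome subunit 75 bases from Mrpl32, and Fau, a cytosolic ribosomal protein gene 59 bases from Mrpl49. These distances are from positions in the authors' table, whose build is not named and is not GRCm38.

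Promoter windows (250 bases before to 50 after the start, RefSeq, GRCm38.p6) were given for 68 of the 77 genes, in 74 windows. They were searched on both strands for motifs of 3 factors known to act on nuclear genes for mitochondrial proteins: CCGGAAGT, read by GABPA and other ETS factors, GCATGCGC, read by nuclear respiratory factor 1 (NRF1), and AAGATGGC, read by YY1. The ETS motif stood in 16.2% of the 74 windows, against 3.89% of all 32851 windows and 7.67% of the windows of genes that passed the filter. The NRF1 motif stood in 10.8%, against 2.71% and 5.0%, and the YY1 motif in 16.2%, against 2.75% and 4.24%. At least 1 of the 3 was found for 29 genes, or 39.2% of the windows, against 8.83% and 15.8%. A match of letters is a description and not evidence of binding.

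The 120 bases before the start are shown for genes that the comparisons below turn on, 5′ to 3′ on the strand of the gene, with matches in capitals. They are the genes with an ETS motif that were furthest up in Dspp+/- (Mrps22, Mrpl43) or high in both mutants (Mrpl3), the genes with an ETS motif in these bases that were furthest down in Dspp-/- (Mrpl27, Mrps26), and Mrpl32 with NRF1 motifs in 3 places, where forward and reverse matches overlap in the first.
Mrps22, chr9:98601680-98601799, minus strand: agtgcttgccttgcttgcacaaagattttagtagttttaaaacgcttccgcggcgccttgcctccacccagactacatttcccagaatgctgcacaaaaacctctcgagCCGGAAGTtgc
Mrpl43, chr19:45006443-45006562, minus strand: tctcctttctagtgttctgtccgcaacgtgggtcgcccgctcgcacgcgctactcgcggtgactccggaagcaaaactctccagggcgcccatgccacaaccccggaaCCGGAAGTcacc
Mrpl3, chr9:105053148-105053267, plus strand: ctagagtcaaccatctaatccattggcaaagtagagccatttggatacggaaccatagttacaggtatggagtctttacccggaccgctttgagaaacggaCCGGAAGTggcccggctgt
Mrpl27, chr11:94653671-94653790, plus strand: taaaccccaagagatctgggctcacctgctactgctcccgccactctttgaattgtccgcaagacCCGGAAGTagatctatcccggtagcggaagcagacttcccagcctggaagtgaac
Mrps26, chr2:130563637-130563756, plus strand: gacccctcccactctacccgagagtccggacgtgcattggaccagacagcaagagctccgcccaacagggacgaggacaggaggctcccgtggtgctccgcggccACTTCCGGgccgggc
Mrpl32, chr13:14613038-14613157, minus strand: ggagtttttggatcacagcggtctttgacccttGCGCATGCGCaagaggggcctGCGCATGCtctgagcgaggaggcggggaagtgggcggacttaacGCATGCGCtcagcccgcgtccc
The ETS motif begins 11 bases before the start in Mrps22 and 12 bases before it in Mrpl43. Mrpl52, lower in both mutants, also has the motif, but after its start. These genes were picked for lying at the ends. Over all 12 genes with the ETS motif, the median ratio was 0.22 in Dspp+/- over WT and 0.10 in Dspp-/- over WT, against 0.17 and -0.088 for the 56 genes whose windows lack it. Between the mutants it was 0.19 for these 12 genes and 0.25 for the 56. In Dspp-/- over WT, the medians with and without the motif were -0.13 and -0.074 for NRF1, and 0.021 and -0.088 for YY1. For genes with any of the 3 motifs and genes with none, they were -0.061 and -0.085.

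Mrps11 (uS11m, of the small subunit platform) and Mrpl46 (mL46, found only in mitochondria) belong to different subunits and are transcribed away from each other. Their RefSeq starts are 42 bases apart, and the 41 bases between them are in both stretches, once on each strand. They are shown since they are 2 members with a common promoter region, with a YY1 motif in capitals that begins 107 bases before the start of Mrps11, outside the shared bases.
Mrps11, chr7:78783011-78783130, plus strand: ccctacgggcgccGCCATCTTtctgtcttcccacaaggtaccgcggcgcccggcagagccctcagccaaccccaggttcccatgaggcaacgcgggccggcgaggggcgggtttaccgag
Mrpl46, chr7:78783090-78783209, minus strand: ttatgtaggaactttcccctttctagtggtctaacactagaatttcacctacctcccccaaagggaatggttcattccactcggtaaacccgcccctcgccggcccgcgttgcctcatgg
Mrps11 was at 6.14 (WT), 4.91 (Dspp+/-) and 4.41 (Dspp-/-) FPKM, and Mrpl46 at 7.65, 8.68 and 7.49 FPKM. Mrps11 was lower in both mutants than in WT, and the interval of the fold of Mrpl46 overlapped 1 in all 3 comparisons. Parts of both genes overlap on opposite strands (8.0% of the exon bases of Mrps11 and 12.2% of those of Mrpl46), and the library kit does not mark strand.

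Against WT, Dspp+/- had slightly more RNA from most mitochondrial ribosomal protein genes. The summed fragments per depth were 1.17-fold higher (95% interval 1.16 to 1.19). From here on, a ratio is the log2 ratio of FPKM + 1, on which genes were ranked and set against the 1.5-fold mark, and a fold is the plain quotient of FPKM, which is further from 1 for genes of low level. The median ratio was 0.20 for the 77 genes and 0.058 for all 13026 genes compared, a gap of 0.14 that was 0.098 to 0.18 under the alternatives, and 59 of 77 genes were higher (76.6%), against 56.3% of all genes. Large differences were few: 4 genes were at least 1.5-fold higher, against 11.5% of all genes, and 1 was at least 1.5-fold lower, against 8.95%. Both together are 6.49% of the 77 genes and 20.5% of all genes. By the plain fold, 6 were higher (15.3% of all genes) and 1 was lower (12.1% of all genes). With hemoglobin, immunoglobulin and muscle genes kept out of the scaling, the median ratio of the 77 genes was 0.017, and 0 were past the mark upwards and 2 downwards. The fold's interval lay above 1 for 40 of 77 genes (39.4% of all genes) and below 1 for 6 (28.4% of all genes). The genes thus differed mostly by small amounts in 1 direction.

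The highest ratio with the pseudocount of 1 was that of Mrpl28 (bL28m), at 14.8 (WT), 24.9 (Dspp+/-) and 16.1 (Dspp-/-) FPKM. Its fold in Dspp+/- was 1.69 (1.5 to 1.9), and the other mutant was close to WT. Mrpl43 (mL43) was at 6.44 (WT), 11.1 (Dspp+/-) and 8.22 (Dspp-/-) FPKM, with 33.4% of its exon bases shared with Twnk, the mitochondrial DNA helicase gene, which was at 4.90, 6.81 and 4.79 FPKM. Mrps22 (mS22), a small subunit protein of which mutations cause mitochondrial disease, was at 1.94, 3.48 and 3.01 FPKM, a fold of 1.79 (1.48 to 2.18) in Dspp+/- and the highest plain fold of the 77 genes. Mrpl45, whose product mL45 anchors the ribosome to the inner membrane near the exit of the chain, was at 9.61, 15.1 and 14.1 FPKM, a fold of 1.57 (1.41 to 1.75). Mrps22 and Mrpl45 were high in both mutants. Under the mark on FPKM + 1 but past it by the plain fold were Mrpl19 (bL19m), with a ratio of 0.56 and a fold of 1.73, although 36.0% of its exon bases belong to Gcfc2 as well, and Mrpl3 (uL3m, next to the peptidyl transferase centre), with 0.54 and 1.55.

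Genes that were lower in Dspp+/- than in WT were led by Mrpl52 (mL52, found only in mitochondria). It was at 18.3 (WT), 10.1 (Dspp+/-) and 9.52 (Dspp-/-) FPKM, the widest spread of the 77 genes at 1.92-fold. Its fold was 0.554 (0.473 to 0.648) in Dspp+/-, and between the mutants it was 1.06 (0.888 to 1.27). On the same strand 1856 bases away lies Mmp14, a membrane-bound matrix metalloproteinase of bone cells, which was at 114 (WT), 47.3 (Dspp+/-) and 66.1 (Dspp-/-) FPKM, and its part in the values of Mrpl52 was not tested. The next were Mrpl20 (bL20m), at 9.95, 6.87 and 6.40 FPKM, and Mrps16 (bS16m), at 6.62, 5.07 and 4.31 FPKM. Mrps26 (mS26), Mrps11 and Mrpl17 (bL17m) followed with ratios of -0.32, -0.27 and -0.22. Each of the 6 had a lower value in Dspp-/- than in WT too, and both comparisons share the WT library.

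**Figure D3:**
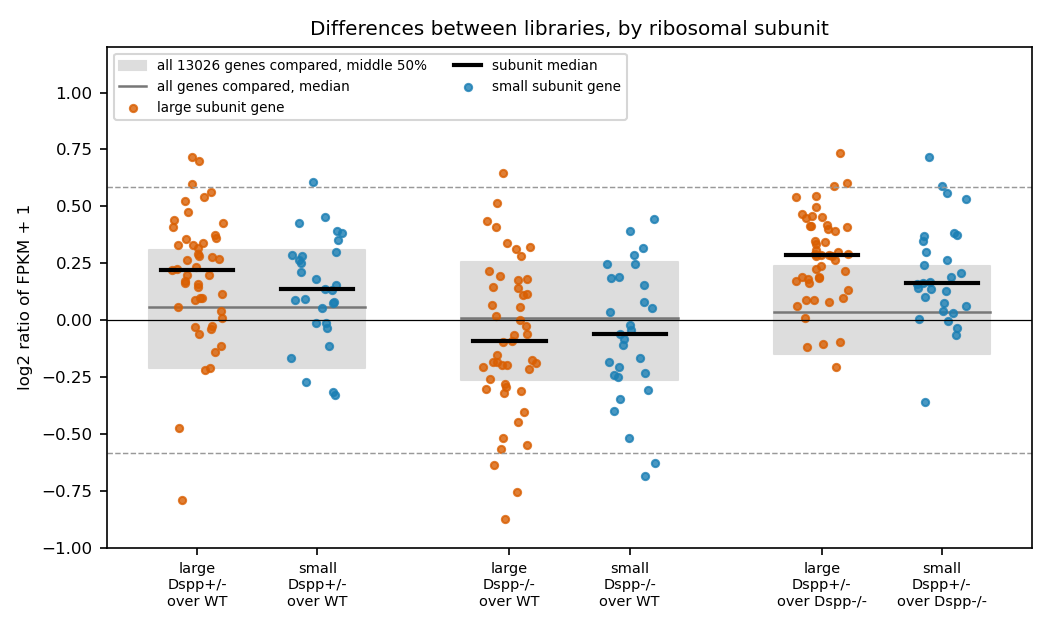
Log2 ratio of FPKM + 1 for each large subunit gene (orange) and small subunit gene (blue) in the 3 comparisons of libraries, with the median of each subunit (black bar), the median and middle 50% of all 13026 genes compared (grey line and box) and the 1.5-fold marks (dashed). Both subunits lie above the median of all genes in Dspp+/- over WT and in Dspp+/- over Dspp-/-, and below it in Dspp-/- over WT.

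Against WT, Dspp-/- had slightly less RNA from these genes, and the genes were divided. The summed fragments per depth gave a fold of 0.968 (0.954 to 0.982). The median ratio was -0.085, against 0.0070 over all genes, and 31 of 77 genes were higher (40.3%), against 50.7% of all genes. Past 1.5-fold were 1 gene that was higher, against 8.84% of all genes, and 5 that were lower, against 8.21%, which makes 7.79% of the 77 genes and 17.1% of all genes. By the plain fold, 2 were higher (12.8% of all genes) and 7 were lower (12% of all genes). The counts became 0 and 10 with hemoglobin, immunoglobulin and muscle genes kept out of the scaling, and 2 and 3 with mitochondrially encoded genes kept out. The interval of the fold lay above 1 for 20 genes (34.1% of all genes) and below 1 for 30 (33.6% of all genes).

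The gene past the mark upwards in Dspp-/- on FPKM + 1 was Mrpl1. It encodes uL1m of the stalk past which spent tRNAs leave, and was at 3.44 (WT), 5.02 (Dspp+/-) and 5.95 (Dspp-/-) FPKM, a fold of 1.73 (1.5 to 2.0) in Dspp-/-. Mrpl45, Mrps22, Mrpl35 (bL35m), Mrpl3 and Mrps17 (uS17m) followed with ratios of 0.51, 0.44, 0.43, 0.41 and 0.39, and the plain fold of Mrps22 was 1.55 (1.27 to 1.9). All 6 were higher in Dspp+/- than in WT too.

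Past the mark downwards in Dspp-/- were Mrpl52, Mrpl27, Mrps26, Mrpl54 and Mrps12. Mrpl27, whose product bL27m reaches towards the peptidyl transferase centre, was at 13.9 (WT), 11.9 (Dspp+/-) and 7.85 (Dspp-/-) FPKM, a fold of 0.563 (0.463 to 0.683). Mrps26 was at 5.65, 4.33 and 3.13 FPKM, a fold of 0.555 (0.480 to 0.642). Mrpl54 (mL54) was at 24.0, 21.7 and 15.1 FPKM. In all 3, Dspp+/- lay between the other libraries. Mrps12, for uS12m at the decoding centre, was at 13.1 (WT), 14.0 (Dspp+/-) and 8.12 (Dspp-/-) FPKM, a fold of 0.620 (0.512 to 0.748) in Dspp-/- and of 1.07 (0.909 to 1.26) in Dspp+/-. Mrpl20 and Mrps16 had ratios of -0.56 and -0.52, short of the mark on FPKM + 1, and plain folds of 0.644 and 0.652, past it.

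The differences between Dspp-/- and WT followed the base composition of the transcripts. GC content was taken from the longest annotated transcript of each gene. Spearman's rho between the ratio and this GC content was -0.52 over the 77 genes. It was -0.49 over 12981 genes of the table, so the trend was not particular to these genes. Of the 26 genes with the highest GC content (52.2% to 60.4%), 2 were higher in Dspp-/- than in WT, with a median ratio of -0.24 against -0.21 for all genes in that range. Of the 25 in the middle, 11 were higher, with a median of -0.097 against 0.0033. Of the 26 with the lowest (38.6% to 46.9%), 18 were higher, with a median of 0.16 against 0.18. The 77 genes thus followed the other genes closely at both ends of GC content and lay below them in the middle. Mrpl54, with the highest GC content of the 77 at 60.4%, was at -0.64 as deposited and at -0.20 after the median of genes of like GC content was taken away, whereas Mrpl52 (52.6%) was at -0.87 and -0.75. Dspp+/- and WT differed less by GC content, with a rho of -0.23 over the 77 genes and -0.17 over all genes. GC content was not tested as a cause.

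**Figure D4:**
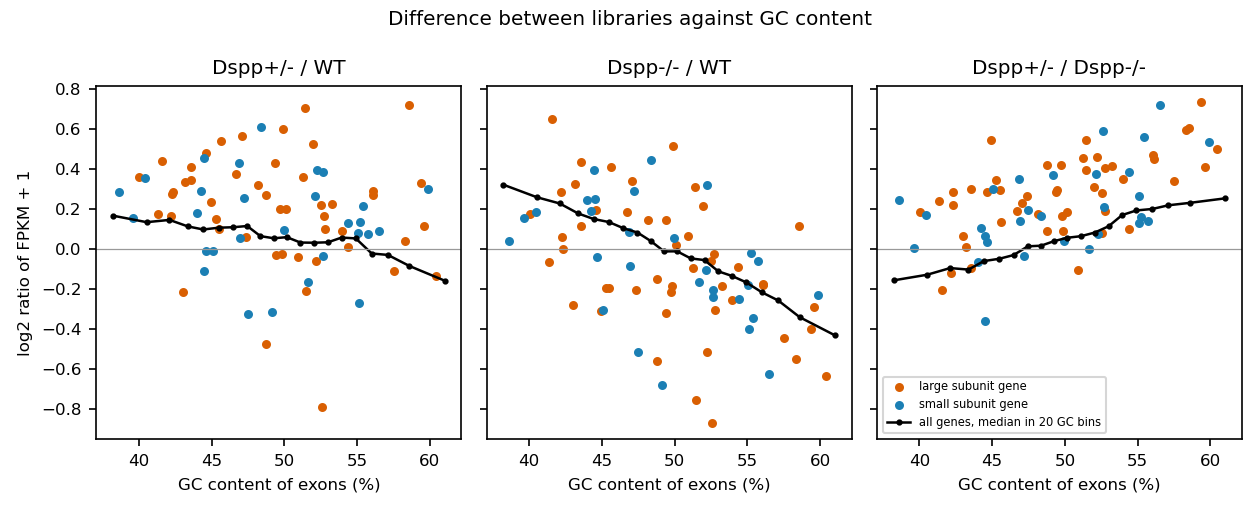
Log2 ratio of FPKM + 1 of each large subunit (orange) and small subunit (blue) gene against GC content (%), in the 3 comparisons of libraries, with the median of all genes in 20 bins of GC content (black line). GC content is that of the longest annotated transcript, although the axis names exons. The line falls with GC content in Dspp-/- over WT, rises in Dspp+/- over Dspp-/- and is flatter in Dspp+/- over WT, and most of the 77 genes lie above it in the panel of the mutants.

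The clearest difference was that between the mutants. Dspp+/- had 1.21-fold (1.196 to 1.23) more summed fragments per depth than Dspp-/-, and 69 of 77 genes were higher in it (89.6%), against 55.3% of all genes. The median ratio was 0.24, against 0.037 over all genes. It was positive over each range of GC content, with 0.18 for the 26 genes of lowest GC content (all genes in that range, -0.085), 0.23 for the 25 in the middle (0.037) and 0.39 for the 26 of highest GC content (0.18). All 26 of the last were higher in Dspp+/-. After adjustment for GC content, 63 of the 77 genes were above the median of all genes. Even here few genes passed the mark on FPKM + 1. Of the 77, 5 were higher in Dspp+/- (4.32% of all genes), and 0 were lower (3.39% of all genes). That is 6.49% of the 77 genes, near the 7.71% of all genes past the mark in either direction. By the plain fold, 9 were higher (8.23% of all genes) and 0 lower (5.62% of all genes). The 4 that only the plain fold adds, at 1.51 to 1.52, are Mrpl27, Mrpl51, Mrps7 and Mrps34 (mS34), and 77.8% of the exon bases of Mrps34 also belong to Mapk8ip3 or Nme3.

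The 5 genes were Mrpl14, Mrps12, Mrpl28, Mrpl34 and Mrps18b. Mrpl14, for uL14m on the face of the large subunit, was at 20.9 (WT), 26.6 (Dspp+/-) and 15.6 (Dspp-/-) FPKM, a fold of 1.70 (1.49 to 1.96) between the mutants, with WT in the middle. The folds of Mrps12, Mrpl28 and Mrpl34 were 1.72 (1.44 to 2.07), 1.55 (1.39 to 1.74) and 1.52 (1.34 to 1.73). After adjustment for GC content none of the 5 remained past the mark. Their adjusted ratios were 0.54, 0.56, 0.41, 0.40 and 0.51 in the order named. With this adjustment 1 other mitochondrial ribosomal protein gene was past the mark as higher in Dspp+/-, and 0 were past it as lower. Without adjustment, furthest the other way were Mrps18c with a ratio of -0.36, Mrpl1 with -0.21, Mrpl32 with -0.12 and Mrpl36 (bL36m) with -0.11. The interval of the fold lay below 1 for the first 2 of these. In all, the interval lay above 1 for 50 genes (34.6% of all genes) and below it for 2 (25.5% of all genes).

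By the order of the libraries, the largest group was that of 30 genes with Dspp-/- lowest, WT in the middle and Dspp+/- highest, which includes Mrpl12, Mrpl14, Mrpl34 and Mrps12. In 24 genes, among them Mrpl45, Mrps22, Mrpl28 and Mrpl3, WT was lowest and Dspp+/- highest. In 15, among them Mrpl52, Mrpl27, Mrpl54, Mrps26, Mrpl20 and Mrps11, WT was highest and Dspp-/- lowest. The other 8 genes had the remaining orders. Shares of these orders over all genes were not computed, so the orders cannot be called particular to the 77 genes. The ratio of the highest to the lowest library had a median of 1.38 over the 77 genes and ran from 1.04 for Mrps31 (mS31) to 1.92 for Mrpl52. This plain quotient reached 1.5 for 20 genes, and the share of all genes that reached it was not computed.

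Large and small subunit genes differed in the same direction. In Dspp+/- over WT the median ratio was 0.22 for the 48 large subunit genes, of which 38 were higher, and 0.14 for the 29 small subunit genes, of which 21 were higher. In summed fragments per depth, the folds were 1.19 (1.17 to 1.21) and 1.14 (1.11 to 1.17). In Dspp-/- over WT the medians were -0.094 and -0.063, with 19 of 48 and 12 of 29 genes higher, and the folds were 0.972 (0.955 to 0.989) and 0.959 (0.934 to 0.984), with intervals that overlap. In Dspp+/- over Dspp-/- the medians were 0.28 and 0.16, with 44 of 48 and 25 of 29 genes higher. The difference between the subunits was thus 0.086 in Dspp+/- over WT and -0.030 in Dspp-/- over WT, while single genes in Dspp+/- over WT ranged from -0.79 to 0.72 in the large subunit and from -0.33 to 0.61 in the small subunit. The small subunit median turned to -0.034 in Dspp+/- when hemoglobin, immunoglobulin and muscle genes were kept out of the scaling, and to 0.011 in Dspp-/- when mitochondrially encoded genes were, while the large subunit median kept its sign under each alternative. The sign of the difference in Dspp-/- turned when the proteins were sorted by their position in the ribosome (0.019), and neither difference can be tested with these libraries.

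Symbols and positions part ways for 3 genes. Mrps30 and Mrps18a are named for the small subunit, but their products mL65 and mL66 sit in the large subunit of the mammalian ribosome. Mrps30 was at 2.62 (WT), 3.62 (Dspp+/-) and 3.11 (Dspp-/-) FPKM, and Mrps18a at 5.88, 6.55 and 5.77 FPKM. Mrps36 encodes a protein now known as a subunit of the 2-oxoglutarate dehydrogenase complex of the citric acid cycle. It was at 10.4, 12.6 and 12.9 FPKM, higher in both mutants than in WT, and 8.2% of the 100-base stretches of its exons are found again in 2 pseudogenes. With these genes sorted by position and Mrps36 left out, the medians in Dspp+/- over WT were 0.22 for 50 large subunit genes and 0.11 for 26 small subunit genes.

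The 3 Mrps18 paralogs, descended from a single bacterial protein, occupy different places in the ribosome and went different ways. Mrps18b (mS40) was at 4.0 (WT), 5.51 (Dspp+/-) and 3.33 (Dspp-/-) FPKM. Mrps18c (bS18m, in the place of the bacterial protein) was at 5.79, 5.27 and 7.06 FPKM. Between the mutants, Mrps18b was higher in Dspp+/- with a fold of 1.65 (1.35 to 2.03), and Mrps18c was lower with a fold of 0.747 (0.591 to 0.943). Mrps18a lay between them with 1.14 (1.0 to 1.285). Mrps18b and Mrps18c have 30.5% and 23.2% of their exon bases in common with other annotated genes, Gm16279 and Gm43511.

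Proteins with bacterial counterparts (46 genes) and those found only in mitochondria (30 genes) were also compared. Mrps18a (mL66) and Mrps18b (mS40) were counted among the 30, although they descend from a bacterial protein. In Dspp+/- over WT the median ratio was 0.16 for the former and 0.27 for the latter, and in Dspp-/- over WT it was -0.16 and -0.034. Between the mutants the medians were 0.253 and 0.250. In WT their median levels were 7.55 and 6.78 FPKM and their means 11.8 and 9.01 FPKM, and over the length of the coding transcript the medians were 17.0 and 9.63.

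Further subunits are listed under other symbols, outside the rule. Of the 5 examined, Dap3 (mS29, which binds GTP) was at 6.37, 7.03 and 5.79 FPKM in WT, Dspp+/- and Dspp-/-, Ptcd3 (mS39, at the messenger RNA entry) at 5.71, 7.99 and 7.94 FPKM, and Chchd1 (mS37) at 34.4, 38.8 and 39.3 FPKM. Aurkaip1 (mS38) was at 25.5, 21.8 and 16.2 FPKM and Gadd45gip1 (mL64) at 6.02, 8.18 and 4.50 FPKM. Dap3 and the 2 last were lowest in Dspp-/-, and Ptcd3 and Chchd1 were lowest in WT. Their median ratios were 0.17 in Dspp+/- over WT and -0.12 in Dspp-/- over WT, close to those of the 77 genes.

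The other genes needed for translation in mitochondria were examined as lists. All 12 translation factors were higher in Dspp+/- than in WT (median 0.31) and 8 of 12 in Dspp-/- (0.063). Their most abundant gene was Tufm, the elongation factor that brings tRNAs, at 28.5 (WT), 36.6 (Dspp+/-) and 21.4 (Dspp-/-) FPKM, and Taco1, a translational activator of cytochrome c oxidase, passed 1.5-fold in Dspp+/- (9.57, 15 and 12.5 FPKM). Of 24 assembly factors, 21 were higher in Dspp+/- (median 0.18) and 12 in Dspp-/- (-0.016), where Rcc1l was 1.5-fold lower (6.76, 7.06 and 4.05 FPKM). The most abundant assembly factor by mean, Mpv17l2, was at 11.4, 8.52 and 8.29 FPKM. Of 20 genes for aminoacyl-tRNA synthetases and amidotransferase subunits, 16 were higher in Dspp+/- (median 0.20) and 10 in Dspp-/- (0.0058). Among them Lars2, the leucyl-tRNA synthetase, was at 2.0 (WT), 10.5 (Dspp+/-) and 3.03 (Dspp-/-) FPKM, and Gatc, the most abundant, at 13.3, 15.5 and 14.9 FPKM.

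Of 22 factors for mitochondrial DNA and RNA, 20 were higher in Dspp+/- (median 0.21) and 15 in Dspp-/- (0.19). Lrpprc, which stabilises mitochondrial messenger RNAs, passed 1.5-fold in Dspp+/- at 6.54, 11.2 and 9.96 FPKM, and Grsf1, the most abundant, was at 32.2, 45.2 and 40.9 FPKM. Of the 8 regulators of mitochondrial biogenesis, 6 were higher in each mutant (medians 0.26 and 0.13). Ppargc1a, the coactivator that drives biogenesis, was at 2.62, 5.74 and 4.75 FPKM and passed 1.5-fold in both, and Yy1, the most abundant by mean, was at 17.4, 21.2 and 19.1 FPKM. Gabpa, of the ETS motif, was at 12, 12.9 and 14.2 FPKM, and Nrf1 at 2.27, 2.87 and 2.50 FPKM. Between the mutants, the medians were 0.21 for translation factors, 0.18 for assembly factors, 0.21 for synthetases, 0.12 for DNA and RNA factors and 0.14 for regulators, all above the 0.037 of all genes. Past 1.5-fold there were Tufm, the rRNA methyltransferases Mrm1 (0.74) and Mrm3 (0.61), Rcc1l (0.68), Lars2 (1.51), Ears2, the glutamyl-tRNA synthetase (0.60), and the nuclear receptor Esrra (0.85).

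**Figure D5:**
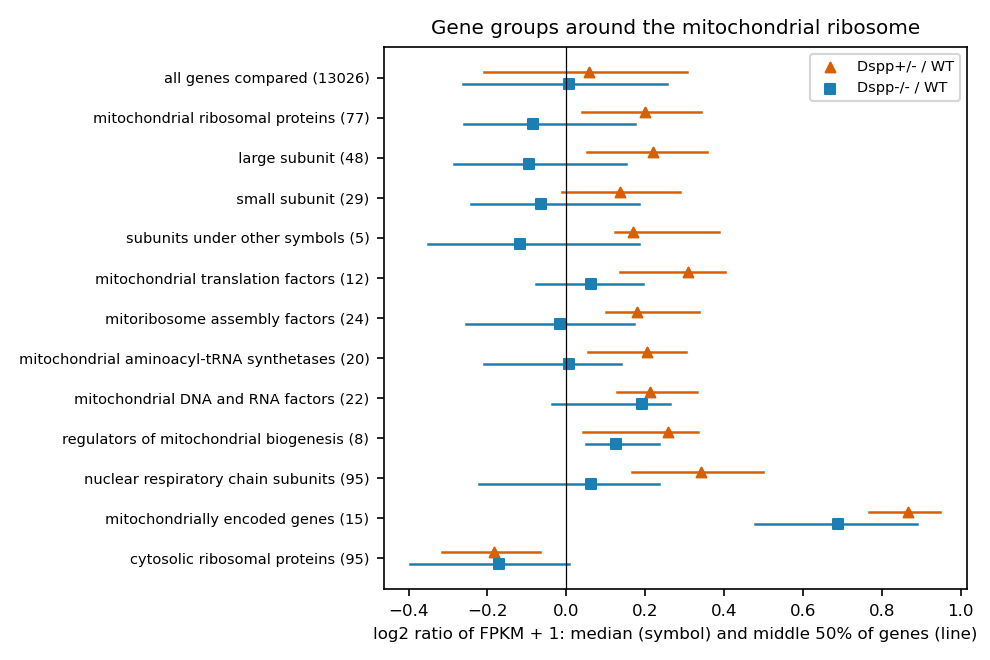
Median log2 ratio of FPKM + 1 (symbols) and middle 50% of genes (lines) for the mitochondrial ribosomal proteins, their subunits, 6 lists of related genes and 3 groups for comparison, in Dspp+/- over WT (triangles) and Dspp-/- over WT (squares), with the number of genes in brackets. The 3 groups for comparison were taken by gene symbol. Mitochondrially encoded genes lie to the right in both, nuclear respiratory chain subunits lie to the right in Dspp+/-, and cytosolic ribosomal proteins lie to the left of all genes in both.

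Cytosolic ribosomal proteins, which form the other ribosome of the cell, differed the other way from the mitochondrial ones in Dspp+/-. The cytosolic group was taken by symbol (Rpl, Rps or Rplp and a digit). This also lets in kinase genes whose symbols begin with Rps and a digit. Of the 95 genes so taken that passed the filter, 14 were higher than in WT, with a median of -0.18. In Dspp-/- 26 were higher, with a median of -0.17. Between the mutants their median was 0.0095, against 0.24 for the mitochondrial ribosomal proteins. A list of 95 nuclear genes for the respiratory chain and ATP synthase, the complexes that the mitochondrial ribosome serves, was taken by symbol too. Symbols beginning with Uqc, which it takes in, also name assembly factors. The list had medians of 0.34 in Dspp+/-, 0.063 in Dspp-/- and 0.31 between the mutants.

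The RNA partners of the 77 proteins are mt-Rnr1, of the small subunit, and mt-Rnr2, of the large subunit. mt-Rnr1 was at 1382 (WT), 2606 (Dspp+/-) and 1724 (Dspp-/-) FPKM, and mt-Rnr2 at 1753, 3519 and 2486 FPKM. Both were lowest in WT and highest in Dspp+/-, although libraries of poly(A)-selected RNA capture ribosomal RNA only in part. Of all 15 mitochondrially encoded genes, 15 were higher in Dspp+/- (median 0.87) and 13 in Dspp-/- (0.69). Their share of all summed FPKM was 25% (WT), 36.9% (Dspp+/-) and 37.3% (Dspp-/-). The median ratio of the 77 nuclear genes was far smaller in each mutant, and their share of the fragments was lower in Dspp-/- than in WT. That share is of a total that includes the mitochondrially encoded genes. With those kept out of the scaling, the median ratio in Dspp-/- over WT was -0.021 for the 77 genes and 0.072 for all genes.

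Of the 15 pairs with a divergent partner, both genes had the same sign in 11 pairs in Dspp+/- over WT, in 9 in Dspp-/- over WT and in 11 between the mutants. No such count was made for divergent pairs of other genes, so a shared control of the pairs cannot be read from it. Mrps12 and Sars2 had ratios of -0.63 and -0.21 in Dspp-/- over WT and of 0.72 and 0.52 between the mutants. Mrpl54 and Apba3, an adaptor protein gene 26 bases away, had -0.64 and -0.49, and 0.50 and 0.77. In these comparisons the genes of each pair had the same sign, but in Dspp+/- over WT Mrpl54 was at -0.14 and Apba3 at 0.28. Mrpl51 and Ncapd2, a condensin subunit 100 bases away, differed: Ncapd2 was at 3.55, 9.66 and 8.69 FPKM, with ratios of 1.23 and 1.09 in the mutants over WT, and Mrpl51 (mL51) at 10.9, 13 and 8.63 FPKM, with 0.23 and -0.31. The 3 pairs described were chosen after their values were seen.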

How the data were processed

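RNA of mandibular condyles was sequenced after poly(A) selection, with a kit that does not mark strand, by CapitalBio Technology. Each genotype has 1 column of values, treated here as 1 library. The authors deposited 1 table of values per gene and library, whose header names no unit, and they were taken to be FPKM, since FPKM times merged exon length (GENCODE M21, GRCm38.p6) is a whole multiple of 1 constant per library. That constant gave the depth and the fragments, which were whole for all 77 genes to within 0.00097 fragments. The processing notes of the submitters name FastQC 0.11.5, HISAT2 2.1.0, StringTie 1.3.3b and DESeq 1.28.0, with no roles, and the human build hg38, although all genes are mouse. Filters and annotation are not given in the sources used here. Reads shared by overlapping genes or near-identical copies could have been split: exons of 32 members overlap another gene, 37 members share 100-base sequences with one, and 37 do neither.

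Genes that averaged 1 FPKM or more were compared as log2 ratios of FPKM + 1 and counted past 1.5-fold. With 1 library per genotype no p-value was computed, and the study's Kruskal-Wallis test could not be used. The members and lists were chosen with earlier results of these data known. Named are the 5 genes of highest and 3 of lowest mean FPKM per subunit, those past 1.5-fold, the 6 largest differences of each sign against WT and 4 between the mutants, the Mrps18 genes, Mrps30, Mrps36 and Mrpl12, and from lists those past 1.5-fold, the most abundant and the additional subunits. Mrpl33, Mrpl46, Mrpl49, Mrpl51, Mrps31, Mrps34 and the neighbouring genes were chosen after their values were seen. 12 alternatives were planned, and 3 were added after seeing the data. Dspp was not analysed here. Values were computed in pandas 2.3.3 and numpy 2.4.6 under Python 3.11.15, intervals in scipy 1.17.1 and figures in matplotlib 3.10.9. Fragment recovery was tested on simulated data.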

Additional observations from a re-analysis of the deposited data

Results flagged for a closer look

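Mrps36-ps1, a pseudogene left out by the rule, was listed at 5.26 FPKM in Dspp+/-, above the 0.969 FPKM of WT, while Dspp-/- was at 0.147 FPKM. The fragments behind these values were 38, 6 and 1, and the fold of Dspp+/- over WT was 5.43 (2.28 to 15.7, counting error only). It is listed because the row is outside the comparisons and the fold's interval lies above the control library. Its copy Mrps36 was at 12.6 FPKM in Dspp+/- and 10.4 in WT, and how reads were shared between the copies was not tested.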

How the results depend on the processing

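No paired analysis was possible because each genotype has 1 library, and no library could be left out. The median ratio of all 77 genes kept its sign under all 10 alternatives that apply, at 0.017 to 0.22 in Dspp+/- over WT, -0.22 to -0.021 in Dspp-/- over WT and 0.16 to 0.28 between the mutants. Leaving hemoglobin, immunoglobulin and skeletal muscle genes out of the scaling moved the median of all genes by -0.16 in Dspp+/- and -0.14 in Dspp-/-. Relative to all genes, the 77 genes were at 0.098 to 0.18 in Dspp+/-, at -0.12 to -0.049 in Dspp-/- and at 0.13 to 0.24 between the mutants under the same 10 alternatives. Among single genes past 1.5-fold, 0 of 151 values under the alternatives changed sign, and 12 moved by more than the counting error of a typical gene. These genes were chosen for large ratios in the same data, so that their signs held says little.

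The signs that turned were those of small differences. The large minus small subunit difference in Dspp-/- became 0.013 at a mean of at least 5 FPKM, 0.019 by position and 0.011 with the GC adjustment. The small subunit median became 0.011 in Dspp-/- under scaling without mitochondrially encoded genes and -0.034 in Dspp+/- under scaling without hemoglobin, immunoglobulin and muscle genes. Counts past 1.5-fold rest on few genes near the mark. Genes higher in Dspp+/- (4) became 1 with a pseudocount of 5, 2 with median-ratio or upper-quartile scaling and 0 without hemoglobin, immunoglobulin and muscle genes, where 2 were lower. Genes higher in Dspp-/- (1) became 2 with a pseudocount of 0.1, with none or without mitochondrially encoded genes, and 0 with a pseudocount of 5, a mean of at least 5 FPKM, the GC adjustment or scaling without hemoglobin, immunoglobulin and muscle genes. Genes lower in Dspp-/- (5) became 1 with a pseudocount of 5, 3 without mitochondrially encoded genes, 10 without hemoglobin, immunoglobulin and muscle genes and 3 among the 37 genes with no overlap or shared sequence. At the threshold tried below 1.5-fold, 22 genes were higher and 3 lower in Dspp+/-, and 8 higher and 13 lower in Dspp-/-. At 2-fold all 4 counts were 0. The shares of all genes past either threshold were not computed, so these counts cannot be set against the other genes. The large to small subunit ratio of mean FPKM in WT, Dspp+/- and Dspp-/- was 1.14, 1.196 and 1.11 at a mean of at least 5 FPKM, 1.253, 1.305 and 1.248 by position and 1.44, 1.49 and 1.43 over coding transcript length, and among the 37 genes it was 1.29 in Dspp+/- and 1.22 in Dspp-/-. The GC adjustment, the coding transcript length and the ratio without a pseudocount were chosen after seeing the data. Apart from the construction of each alternative, the cause was not tested. The median counting error of a single log2 ratio was 0.20 in Dspp+/- over WT. There the fold's interval lay above 1 for 40 of 77 genes (39.4% of all genes) and below 1 for 6 (28.4% of all genes). Such intervals do not cover differences between animals, which these single libraries cannot show.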
